A study of Mus musculus with 4 samples.

Results

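The data described here are the read counts of 10 genes of hypothalamic homeobox and patterning factors in embryonic mouse brain: Otp, Hmx2, Hmx3, Six6, Nkx2-2, Sox14, Fezf1, Vax1, Lhx9 and Tbx3. They were found by gene symbol in both deposited tables, 10 of the 19150 genes that the tables share. The genes were chosen from the read counts of these same libraries, with their differences between KO and WT in view. Their KO against WT values, including their rows of the fits across all genes, are therefore a description and support nothing. The study sequenced RNA of brain from C57BL/6 embryos at E13.5 in 2 KO libraries (KO2 and KO4) and 2 WT libraries (WT6 and WT8), and its title names macroH2A, a histone H2A variant, as what was deleted. The labels give no promoter, Cre line or targeted exon, and do not say whether an RNA sample was 1 embryo or a pool, so p-values measure only the spread between these libraries, which may be technical. The authors deposited KO2 with WT6 in one table and KO4 with WT8 in the other. Total counts lay between 16470090 and 18136745 reads per library. H2afy, which encodes macroH2A1, had 1368 and 1267 reads in the KO libraries against 5538 and 5593 in WT, a log2 fold change of -2.22 (edgeR's quasi-likelihood test, adjusted p = 0.00167), so the labels were met. H2afy2, which encodes macroH2A2, had a log2 fold change of 0.08 (adjusted p = 0.799).

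The hypothalamus forms from the ventral forebrain under Sonic hedgehog secreted at the midline. Transcription factors, many with a homeodomain, divide it into territories and then fix the neuroendocrine cell types of each. Otp is required for neurosecretory neurons of the paraventricular and arcuate nuclei, Hmx2 and Hmx3 for growth hormone-releasing hormone neurons of the arcuate nucleus, and Six6 for eye, pituitary and hypothalamic development. In the authors' deposited table the Pfam domain of 7 of the 10 genes is a homeobox. Sox14 carries an HMG box, Fezf1 zinc fingers and Tbx3 a T-box. Several of the 10 are active outside the hypothalamus too, Fezf1 in olfactory neurons, Vax1 in the optic stalk and ventral telencephalon, Lhx9 in thalamus and early cortical neurons and Sox14 in thalamus and midbrain.

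Promoter sequences of 9 of the 10 genes were taken from RefSeq (GRCm38.p6), and the 3 windows that cover no annotated exon are shown as examples of the start regions. Each line holds the 250 bases before the RefSeq start, 5′ to 3′ on the strand of the gene. The windows are chr7:131548507-131548756 (plus strand) for the upstream start of Hmx2, chr9:99876171-99876420 (minus strand) for Sox14 and chr19:59170398-59170647 (minus strand) for Vax1. The first pair belongs to genes that were nearly silent in some libraries, and Vax1 is shown as a gene present in all 4. Capitals mark a match to the TATA box letters TATAAA.
Hmx2: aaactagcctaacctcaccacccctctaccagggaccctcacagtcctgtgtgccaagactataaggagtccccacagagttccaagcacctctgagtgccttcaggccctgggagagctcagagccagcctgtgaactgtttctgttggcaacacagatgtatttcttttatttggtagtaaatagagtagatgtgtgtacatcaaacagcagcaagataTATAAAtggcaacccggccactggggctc
Sox14: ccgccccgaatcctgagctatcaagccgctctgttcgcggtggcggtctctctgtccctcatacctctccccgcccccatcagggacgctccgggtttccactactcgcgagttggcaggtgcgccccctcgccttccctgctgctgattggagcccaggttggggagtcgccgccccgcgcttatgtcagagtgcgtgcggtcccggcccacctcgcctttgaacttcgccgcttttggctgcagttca
Vax1: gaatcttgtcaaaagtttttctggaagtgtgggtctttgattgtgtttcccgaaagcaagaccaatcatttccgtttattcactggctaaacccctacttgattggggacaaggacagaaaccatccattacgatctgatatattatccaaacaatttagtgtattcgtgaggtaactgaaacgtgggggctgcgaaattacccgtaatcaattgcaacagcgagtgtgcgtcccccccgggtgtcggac
The 3 windows differ in base composition. The Hmx2 window has 49.6% G and C and an observed over expected CpG ratio of 0.07, Sox14 has 65.6% and 0.88, and Vax1 has 44.8% and 0.88. Over the 10 windows of the 9 genes (Hmx2 has 2 starts) the median was 59.6% G and C and a CpG ratio of 0.70, against 52.4% and 0.37 over the 32851 RefSeq promoter windows of that length. TATAAA was found in 1 of the 10 windows, that of Hmx2, and in 12.4% of all.

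The letters TCAAGTG, the core bound by NK2 homeodomain proteins such as Nkx2-1, were searched on both strands and found in 1 of the 10 windows, that of Nkx2-2, and in 2.68% of all. The match begins 197 bases before the start and lies on the opposite strand, so that the capitals within the 27 bases shown are its reverse complement on the strand of the gene, chr2:147186583-147186609 (minus strand).
Nkx2-2: tgtcttcatcCACTTGActcccaagac
The homeodomain core TAATTA and the Gli site GACCACCCA were each in 0 of the 10 windows, and in 4.84% and 0.225% of all. These matches are letters in a window and do not show binding.

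For Hmx2, Hmx3, Six6, Nkx2-2 and Sox14, WT8 held 74.1% to 92.3% of all reads, and the order of the libraries did not follow genotype. These genes had between 41 and 85 reads in WT8 and at most 3 in WT6, the other wild-type library. KO2 held 5 to 20 reads and KO4 at most 5. Values in CPM are read counts scaled to library size with TMM factors, which correct for library composition.

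Hmx2 (ENSMUSG00000050100, chromosome 7, 131548773 to 131558014 on GRCm38, plus strand) was read 85 times in WT8, 20 times in KO2, once in KO4 and 0 times in WT6. WT8 was 30.5-fold above WT6 when the 0 reads of WT6 were set to 3, a value that leaves out counting error in WT8. Within the knockouts KO2 was 20-fold above KO4, with an exact 95% counting interval of 3.2 to 829. Both KO libraries thus lay between the WT libraries. The means were 0.572 ± 0.732 CPM in KO and 2.66 ± 3.76 CPM in WT (SD, n = 2 each), a difference smaller than the SD within WT.

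Hmx3 (ENSMUSG00000040148), which lies 3847 bases upstream of Hmx2 on the same strand of chromosome 7 (131542867 to 131544925), was read 43 times in WT8, 15 times in KO2 and 0 times in both KO4 and WT6. This is the order of Hmx2: WT8 first, KO2 second, and next to nothing in KO4 and WT6. WT8 was 3.29-fold above KO2 for Hmx3 (counting interval 1.79 to 6.38) and 4.88-fold above it for Hmx2 (2.97 to 8.38), and the intervals overlap. The opposite-strand gene Fgfr2 spans both, its exons touch neither, and it had 949, 1040, 913 and 782 reads in KO2, KO4, WT6 and WT8, with its lowest count in WT8.

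Six6 (ENSMUSG00000021099, chromosome 12, 72939892 to 72944899, plus strand) was read 84 times in WT8, 7 times in KO2 and 0 times in both KO4 and WT6. WT8 held 92.3% of all its reads and stood 13.8-fold above KO2 (counting interval 6.4 to 35.3). An exon of 4930447C04Rik on the opposite strand overlaps Six6, and the sources used here do not state whether counting used strand, so reads of the 2 genes cannot be told apart there. That gene had 36 reads in WT8, 19 in KO2, 7 in KO4 and 17 in WT6, and its 17 reads in WT6 stand beside 0 of Six6.

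Nkx2-2 (ENSMUSG00000027434, chromosome 2, 147177546 to 147194243, minus strand), a factor induced by Sonic hedgehog in the ventral neural tube, was read 46 times in WT8, 7 times in KO2, 5 times in KO4 and 3 times in WT6. WT8 was 16.5-fold above WT6 (counting interval 5.31 to 83), while KO2 and KO4 differed by less than counting error (1.40-fold, 0.382 to 5.59). Nkx2-2os, an antisense gene annotated over its exons, has no value in either table used here. As for Six6, reads where the exons overlap cannot be assigned without knowing whether counting used strand.

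Sox14 (ENSMUSG00000053747, chromosome 9, 99874106 to 99876170, minus strand), a SoxB2 repressor of hypothalamic, thalamic and midbrain neurons, was read 41 times in WT8, 5 times in KO2, once in KO4 and 0 times in WT6. WT8 stood 14.7-fold above WT6 with the 0 reads of WT6 set to 3, and 9.41-fold above KO2 (counting interval 3.72 to 30.5). KO2 and KO4 could not be ranked at this depth, their ratio having an interval of 0.559 to 236.

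**Figure D1:**
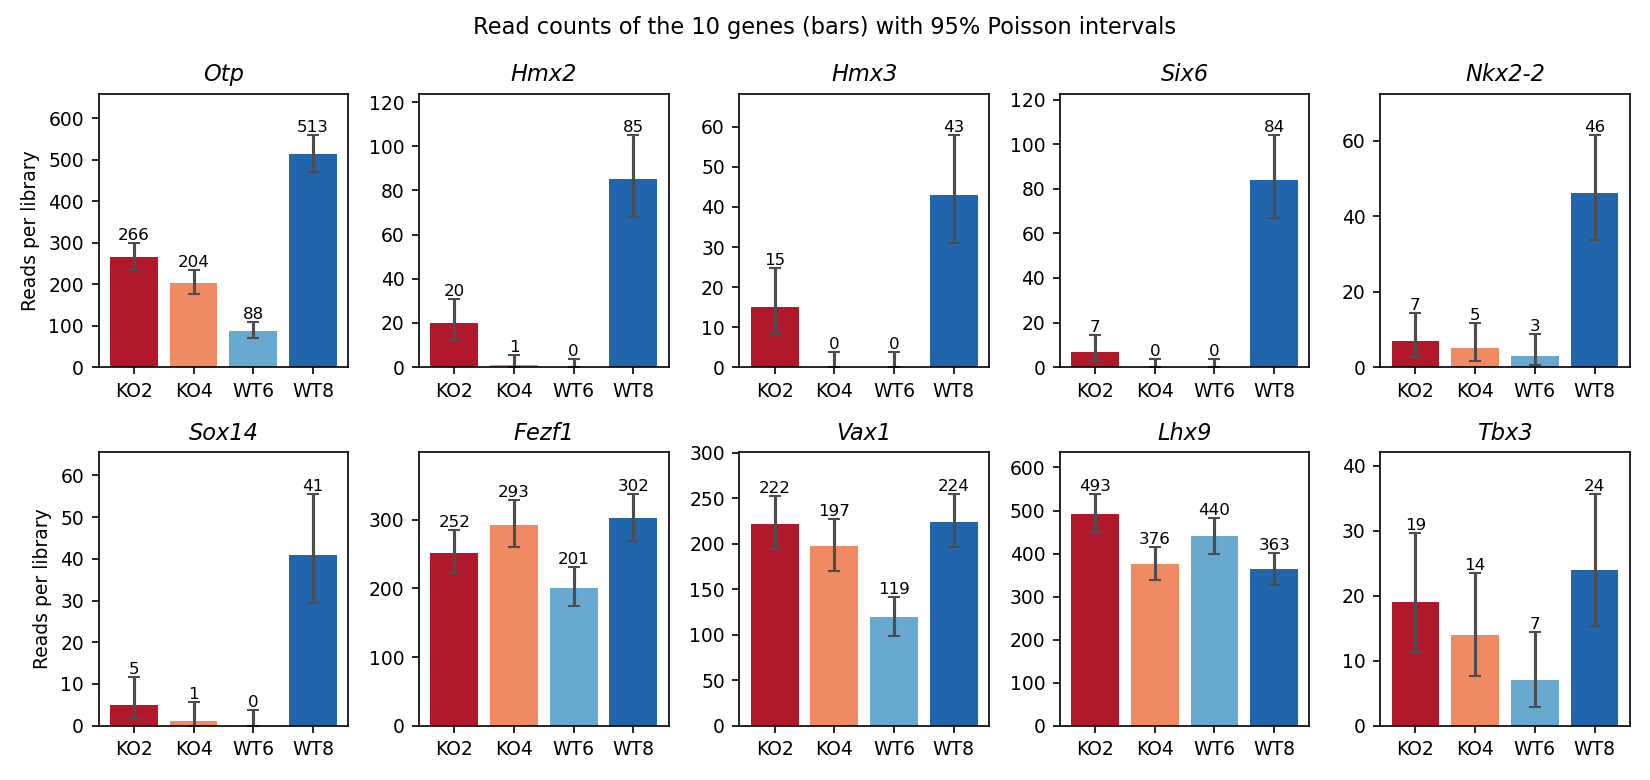
Read counts of the 10 genes in KO2, KO4, WT6 and WT8, one panel a gene with its own axis from 0, with exact 95% Poisson intervals as error bars. Hmx2, Hmx3, Six6, Nkx2-2 and Sox14 have 41 to 85 reads in WT8 and at most 20 in any other library, while Lhx9 has 363 to 493 in all 4.

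Otp (ENSMUSG00000021685, chromosome 13, 94875602 to 94885130, plus strand) followed the same order with enough reads to place all 4 libraries. WT8 had 513 reads (32.1 CPM), KO2 266 (14.5 CPM), KO4 204 (11.1 CPM) and WT6 88 (5.11 CPM). The KO mean was 12.8 ± 2.39 CPM and the WT mean 18.6 ± 19.1 CPM (SD, n = 2 libraries each). The WT libraries differed 6.28-fold (counting interval 5 to 7.97), the KO libraries 1.30-fold (1.08 to 1.57). WT6 was the lowest library and WT8 the highest, and KO2 was 2.84-fold above WT6 (2.22 to 3.65) whereas KO4 was 0.347 times WT8 (0.293 to 0.408).

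Vax1, Tbx3 and Fezf1 shared the low value of WT6 and differed less between the WT libraries. Vax1 (ENSMUSG00000006270, chromosome 19, 59166187 to 59170056), which patterns the ventral forebrain and optic nerve, was read 224 times in WT8, 222 in KO2, 197 in KO4 and 119 in WT6. Its KO libraries and WT8 lay within 10.7 to 14.0 CPM, with WT6 apart at 6.91 CPM. For Vax1, WT8 was not separated from KO2 (1.16-fold, counting interval 0.958 to 1.4), while KO4 was 0.766 times WT8 (0.63 to 0.932). Tbx3 (ENSMUSG00000018604, chromosome 5, 119670669 to 119684724) is a T-box factor of the infundibulum and of Pomc neurons. It was read 24, 19, 14 and 7 times in WT8, KO2, KO4 and WT6. WT8 was 3.69-fold above WT6 for Tbx3 (counting interval 1.54 to 10.2) and not separated from KO2 (1.45-fold, 0.761 to 2.8). Tbx3os1, an antisense gene whose exons overlap those of Tbx3, had 1 read in KO2 and 2 in WT6, and no value in the other table. The limit on strand given for Six6 holds for Tbx3 too. Fezf1 (ENSMUSG00000029697, chromosome 6, 23245044 to 23248362), a repressor needed by neurons of the ventromedial hypothalamus, had 302 reads in WT8, 293 in KO4, 252 in KO2 and 201 in WT6, a 1.62-fold difference between the WT libraries (1.35 to 1.94).

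Lhx9 (ENSMUSG00000019230, chromosome 1, 138825186 to 138848577), a LIM homeodomain factor, was the gene of the 10 that had neither its highest level in WT8 nor its lowest in WT6. KO2 had 493 reads, WT6 440, KO4 376 and WT8 363. The KO mean of 23.7 ± 4.50 CPM and the WT mean of 24.1 ± 2.01 CPM (SD, n = 2 each) differed by less than the spread within a genotype, and WT8 was 0.889 times WT6 (counting interval 0.771 to 1.02).

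Per kilobase of exon (GENCODE M21 lengths), the mean level over the 4 libraries was highest for Vax1 at 9.80 CPM per kilobase, followed by Fezf1 at 6.26, Otp at 5.45 and Lhx9 at 2.52. The other genes lay far below: Hmx3 at 0.602, Hmx2 at 0.502, Six6 at 0.351, Sox14 at 0.350, Nkx2-2 at 0.322 and Tbx3 at 0.140. In WT8 alone Hmx3 reached 1.85, Hmx2 1.65 and Tbx3 0.227 CPM per kilobase, and Otp, at 11.1, exceeded Fezf1, at 7.84. In bulk RNA, fewer cells that express a gene and less RNA per cell cannot be told apart.

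Read as the authors paired the libraries, the 10 genes pointed in opposite directions. In CPM, KO2 was above WT6 and KO4 was below WT8 for 10 of the 10 genes, a pattern held by 24.7% of the 15708 genes with enough reads to be tested. Some of these differences were within counting error. For Lhx9, KO2 was 1.05 times WT6 (counting interval 0.923 to 1.2) and KO4 was 0.903 times WT8 (0.779 to 1.05). The interval of KO2 over WT6 also included 1 for Fezf1 (0.974 to 1.42) and Nkx2-2 (0.5 to 13.1). It was not computed for Hmx2, Hmx3, Six6 and Sox14, which had 0 reads in WT6. Of these, the Poisson intervals of the KO2 and WT6 counts overlap for Six6 (2.81 to 14.4 and 0 to 3.69) and Sox14 (1.62 to 11.7 and 0 to 3.69). The interval of KO4 over WT8 included 1 for Tbx3 (0.243 to 1.02). It was not computed for Hmx3 and Six6, which had 0 reads in KO4. Both KO libraries lay at or between the WT libraries for 9 genes, all except Lhx9, against 19.2% of tested genes. WT8 was the highest library for 9 (32.8% of tested genes) and WT6 the lowest for 9, counting ties at 0 (20.7%), with Lhx9 again outside both counts. Six6, Nkx2-2 and Sox14 had too few reads to be among the tested genes, so shares and medians over those genes do not cover them. As the 10 genes were chosen on these counts, nothing is read from those shares. The median log2 ratio of the 10 was 1.31 between KO2 and WT6 and -2.24 between KO4 and WT8, from CPM with a prior count of 2, against 0.00 and 0.01 over all tested genes. The authors' deposited table for KO2 and WT6 marks 3 of the 10 as significant, all higher (Otp, Hmx2 and Hmx3), where 1.31% of its genes are marked higher. Their deposited table for KO4 and WT8 marks 6 of the 10, all lower (Otp, Hmx2, Hmx3, Six6, Nkx2-2 and Sox14), where 2.09% are marked lower. Each table compares 1 library with 1 library and does not measure the spread within a genotype.

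**Figure D2:**
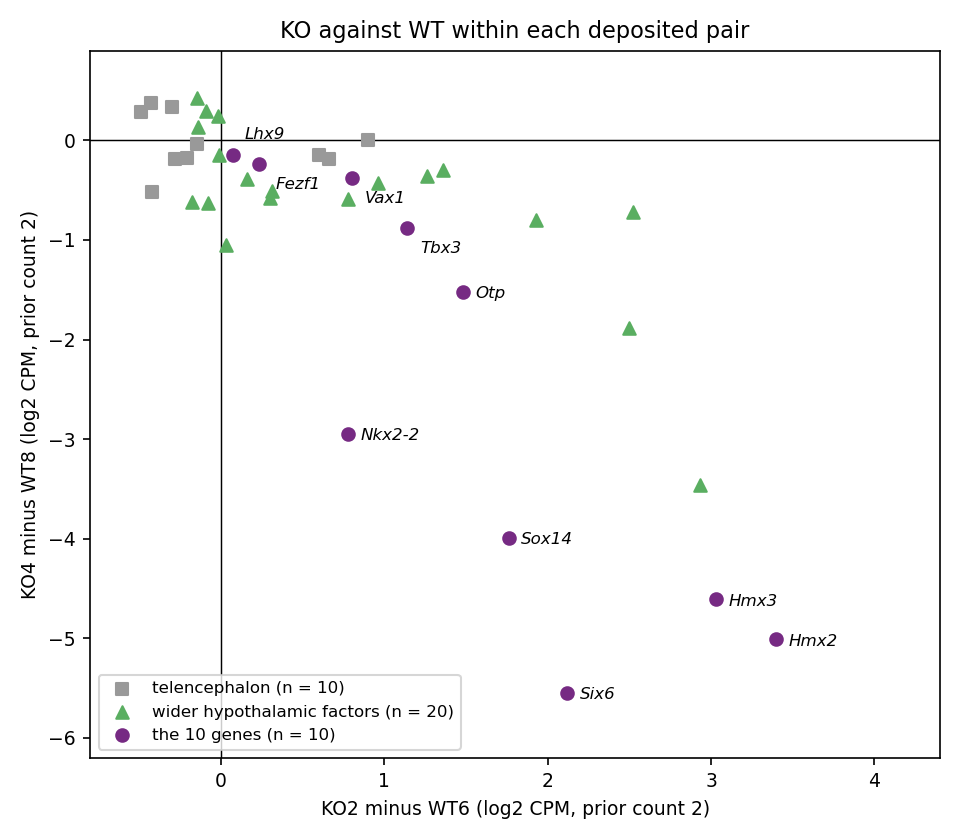
Log2 difference in CPM (prior count 2) of KO2 minus WT6 (horizontal) against KO4 minus WT8 (vertical) for the 10 genes, the wider hypothalamic factors and telencephalic genes, one point a gene. The 10 genes all lie to the right of and below 0, with Lhx9 at 0.07 and -0.15 and Hmx2 at 3.40 and -5.01. Values of genes with 0 reads in a library depend on the prior count.

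Over all 4 libraries, none of the 10 genes was called by edgeR, DESeq2 or limma-voom. The edgeR quasi-likelihood fit across all genes could test 7 of the 10. Six6, Nkx2-2 and Sox14, with at most 7 reads in each library but WT8, did not pass its filter on low counts. It called 0 of the 7, with 0 at an unadjusted p under 0.05, where 0.00637% of all tested genes were called (H2afy alone) and 4.7% were at that unadjusted level. DESeq2, fitted to all 10, called 0, with 1 (Nkx2-2) at an unadjusted p under 0.05, where it called 0.0209% of all genes and had 1.63% at that level. The limma-voom fit called 0 of 7, with 0 at an unadjusted p under 0.05, where it called 0.00637% of all genes and had 4.65% at that level. Fitted log2 fold changes of KO over WT were -0.53 (SE 0.69) for Otp, -0.04 (SE 0.24) for Fezf1, 0.13 (SE 0.31) for Vax1, -0.03 (SE 0.16) for Lhx9 and -0.07 (SE 0.62) for Tbx3. For Hmx2 and Hmx3 they were -2.18 and -1.68 with an SE of 1.53 each. Fitted without the filter, Six6, Sox14 and Nkx2-2 had -3.72 (SE 1.75), -2.90 (SE 1.55) and -2.18 (SE 1.10). Several of these values moved with single libraries. With WT8 left out, so that WT6 alone stands for WT, the log2 fold change of Otp turned from -0.53 to 1.33. That value is no evidence of a difference, since the gene was chosen on these counts. Hmx2 and Hmx3 turned to 6.38 and 5.90 there, and with KO2 left out they stood at -5.41 and -7.52, and Six6 at -8.49. Those values depend on the default prior count of the edgeR fit, which is not the 2 used for log2 CPM. They do so because WT6 has 0 reads of Hmx2, Hmx3 and Six6 and KO4 has 1, 0 and 0. Lhx9 stayed between -0.23 and 0.15 whichever library was left out.

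Genes of the hypothalamus outside the 10 were taken from a list of 26 factors, of which 20 had values in both tables. Bsx, Gsx1, Nkx2-1, Sim1, Isl1 and Six3 had the largest range over libraries among those with a mean of at least 1 CPM. Nkx2-1, which specifies the ventral hypothalamus and medial ganglionic eminence, was read 1880 times in WT8, 1787 in KO2, 1307 in KO4 and 290 in WT6. WT6 was thus the odd library for Nkx2-1, at 16.8 CPM against 71.3 to 118 CPM. Isl1, a LIM homeodomain factor of arcuate and striatal neurons, had 16.6 CPM in WT6 and 40.3 to 49.6 CPM in the other libraries. Six3, the paralog of Six6, had 22.4 CPM in WT6 and 39.1 to 52.8 CPM elsewhere. Gsx1, needed for growth hormone-releasing hormone neurons, had 70, 31, 10 and 104 reads in KO2, KO4, WT6 and WT8, and Bsx, a homeobox factor of arcuate feeding neurons, had 22, 3, 1 and 47. Both repeat the order of Hmx2, with WT8 highest, KO2 second and WT6 lowest. Sim1, a factor of the paraventricular nucleus, had 29, 35, 15 and 47 reads. Arnt2, the partner of Sim1, lay between 220 and 271 CPM and Pou3f2 between 81.4 and 96.0 CPM, both lowest in WT8.

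Over the list, 13 of 20 genes were highest in WT8 and 10 lowest in WT6. Of 17 tested, edgeR called 0, with 0 at an unadjusted p under 0.05, and DESeq2 and limma-voom also called 0. The median log2 fold change was -0.10, with 6 above 0, and that of all tested genes was -0.01. A further 5 have values in the table of KO4 and WT8 alone. Among these, Nr5a1, the defining factor of the ventromedial nucleus, had 2 reads in KO4 and 49 in WT8, Nkx2-4 had 0 and 23, and Rax, a factor of hypothalamic and retinal progenitors, had 3 and 13.

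Transmitter and peptide genes of hypothalamic neurons were mixed. Trh, thyrotropin-releasing hormone, was read 83 times in WT8, 32 in KO2, 18 in KO4 and 9 in WT6. Th, tyrosine hydroxylase, had 162, 105, 62 and 47 reads in that order. Pomc, the melanocortin precursor, had 144, 58, 53 and 61 reads, so that WT8 stood apart and WT6 did not, and Cartpt had 36, 2, 5 and 2. Sst, which marks interneurons in much of the forebrain, lay between 129 and 158 CPM. Of 16 genes with values in both tables, 9 were highest in WT8 and 5 lowest in WT6. Of 11 tested, 4 lay above 0 and edgeR called 0, with 1 at an unadjusted p under 0.05. DESeq2 also had 1 at that level, limma-voom 0, and neither called any.

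Paralogs of the 10 did not follow them as a group. Besides Nkx2-1 and Six3, Fezf2 had 162, 164, 224 and 158 CPM in KO2, KO4, WT6 and WT8, Lhx2 had 358, 322, 436 and 368 CPM, Sox21 lay between 44.5 and 51.9 CPM and Tbx2 between 5.72 and 6.39 CPM. Fezf2 and Lhx2, which are high in cortical progenitors, were thus highest in WT6, the library where 9 of the 10 were lowest. Of 6 with values in both tables, 2 were highest in WT8. Of these 6, edgeR, DESeq2 and limma-voom called 0, with 0, 1 and 0 at an unadjusted p under 0.05. In the hedgehog list Shh itself had 75, 62, 31 and 124 reads, the order of Otp, while its receptor Ptch1 lay between 22.1 and 28.0 CPM and its target Gli1 between 6.49 and 10.1 CPM. Of 8 hedgehog genes with values in both tables, 4 were highest in WT8, and edgeR called 0 of 7 tested, with 0 at an unadjusted p under 0.05 in edgeR, DESeq2 and limma-voom.

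The 10 genes whose pattern lay nearest to the median of these genes, among 14339 with a mean of at least 1 CPM, were ranked by Euclidean distance over 4 libraries, which is a description from few points. Trh was nearest (distance 0.17 in log2 CPM). Then came Dlk1, an imprinted Notch-like ligand gene, at 0.56, with 2580 reads in WT8, 1271 in KO2, 1065 in KO4 and 463 in WT6. Fgf17, a growth factor of the rostral midline, followed at 0.58, with 98, 56, 27 and 20 reads, and the processed pseudogene Gm10080, whose reads can belong to its parent gene, at 0.79. Gsx1 stood at 0.83, Th and Shh at 0.84, Ddc, which encodes the decarboxylase that acts after Th, and Kirrel2 at 0.90, and the antisense RNA D030055H07Rik at 0.91.

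**Figure D3:**
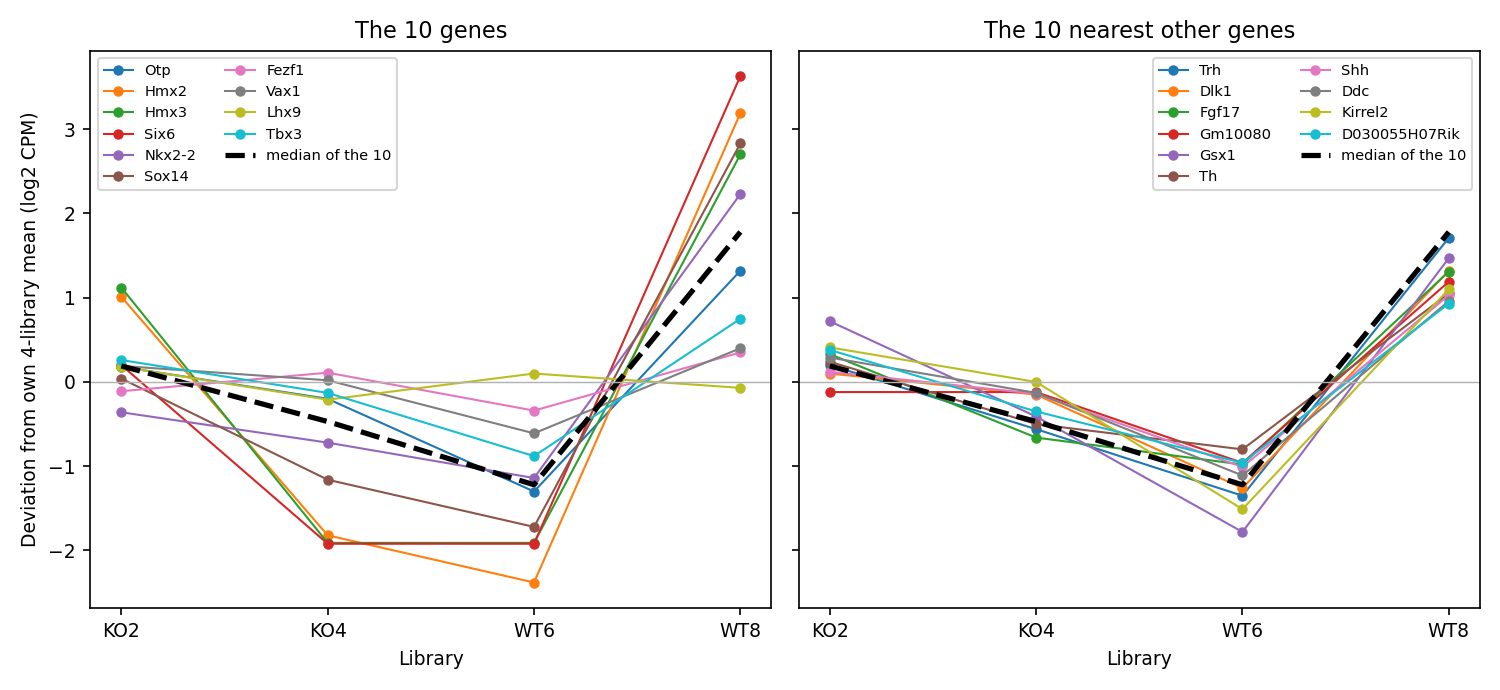
Deviation of each gene's log2 CPM from its own mean over 4 libraries, for the 10 genes (left) and the 10 nearest other genes (right), with the median of the 10 genes dashed. Lines join the points of a gene, and the libraries have no order. The median lies at 1.78 in WT8, 0.19 in KO2, -0.47 in KO4 and -1.22 in WT6.

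Markers of other regions and cell types were set beside this order. The brain label was met by forebrain genes: Lhx2 had 322 to 436 CPM in all libraries. The midbrain and hindbrain genes En1, En2, Pax3, Hoxa2, Hoxb1, Hoxb2 and Atoh1 have no value in either table used here. Others of these lists were present: Tcf7l2, a factor of the thalamus, had 10.2 CPM in WT6 and 15.0 to 17.6 CPM elsewhere, Helt, a midbrain factor, 3.43 against 5.25 to 5.72 CPM, Gbx2, a factor of the thalamus, 1.45 against 3.16 to 5.07 CPM, and Gbx1 7.84 against 13.2 to 15.3 CPM. Of 7 thalamic and midbrain genes with values in both tables, 4 were lowest in WT6 and 2 highest in WT8, and their median deviation in WT6 was -0.48. Of the 9 pituitary genes, 7 have no value while Hesx1 and Lhx3 had 1 and 2 reads in WT8 and 4 and 3 in KO4. Of the eye genes, Dct, a pigment gene, lay between 10.1 and 17.7 CPM with its highest level in WT6, and Mitf, a pigment cell factor, had 1.56 CPM in WT8, 1.22 in WT6, 0.6 in KO4 and 0.491 in KO2. Of 7 eye genes with values in both tables, 3 were highest in WT8 and 0 lowest in WT6. Of the 2 tested, Dct and Mitf, 0 were called by edgeR, DESeq2 or limma-voom, with 2, 1 and 2 at an unadjusted p under 0.05. Within the telencephalon the WT libraries again differed: Dlx1, a factor of the ganglionic eminences, was lowest in WT6 (269 CPM against 381 to 423 CPM), and Neurod6, a gene of cortical neurons, was highest in WT6 and lowest in WT8 (839 and 530 CPM). Summed over the 10 telencephalic genes the level was 2598.9 to 2935.4 CPM, while the sum over the 10 hypothalamic genes was 108 CPM in WT8, 71.2 in KO2, 59.5 in KO4 and 49.8 in WT6. Erythroid genes had the same extremes, with 4 of 6 highest in WT8 and 4 of 6 lowest in WT6 and a summed level of 978 CPM in WT8, 565 in KO2, 567 in KO4 and 431 in WT6. Endothelial genes summed to 96.1 to 102 CPM, meningeal genes to 7.72 to 9.63 CPM and microglial genes to 26.9 to 34.8 CPM. The part of any of these in the order of the hypothalamic genes was not tested.

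**Figure D4:**
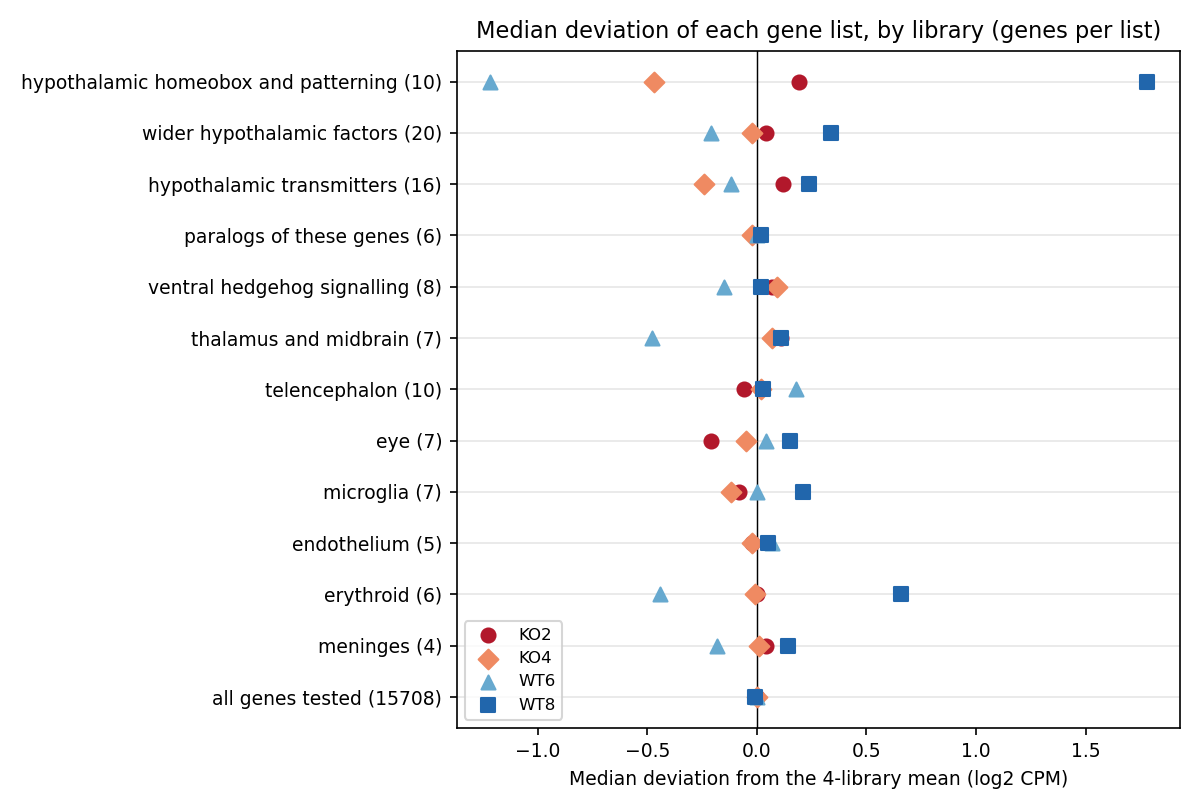
Median deviation from the mean of the 4 libraries (log2 CPM) for each gene list with at least 4 genes measured in both tables, one marker a library, with the number of genes in brackets. The 10 hypothalamic genes run from -1.22 (WT6) to 1.78 (WT8), erythroid genes from -0.44 to 0.66, and all tested genes lie at 0.00 or -0.01.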

How the data were processed

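RNA of E13.5 brain was extracted with Trizol and sequenced on an Illumina instrument, per the labels' protocols. Bowtie2 2.2.3, TopHat2 2.0.12, HTSeq 0.6.0 and mm9 appear in the submitters' processing notes without a role. Positions in the tables were identical to GENCODE M21 on GRCm38 for 91.7% of genes and for all 10 described here, so GRCm38 is used. The authors deposited 2 tables of unnormalized read counts per gene, per the file headers. They also deposited a CPM value, in which a count of 0 has the value of a part of a read, a KO over WT ratio, the log2 of that ratio, and a p-value and adjusted p-value of an unstated test. Marked genes have an adjusted p of at most 0.0497 and an absolute log2 fold of at least 1.00, as found from the values.

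Samples were grouped by the genotype in their titles. Counts of 19150 genes in both tables were fitted in R 4.3.3 with edgeR 4.0.16 (quasi-likelihood F-test on 4 libraries, genotype as the only term, TMM, filterByExpr, 15708 genes, Benjamini-Hochberg adjustment, threshold 0.05). Its SE is the size of the log2 fold change divided by the square root of F. The fit was checked on counts with known changes. Alternatives were RLE normalization, no filter, DESeq2 1.42.0, limma-voom (limma 3.58.1), the deposited pair as a block, and the fit without each library. Log2 CPM used a prior count of 2. Counting intervals are exact at 95% and cover counting error only. In folds a count of 0 was set to 3 reads, without counting error of the other library. Another 2377 genes are in 1 table alone and were not fitted.

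The 10 genes and the 13 lists set beside them were chosen with earlier results of these data known. Outside the 10, genes of the wider hypothalamic, paralog and transmitter lists could be named, those with the largest range first, 2 to 4 genes of each other list by level, and the 10 nearest in pattern at a mean of at least 1 CPM. Gli1, marker genes at or near 0 (Hesx1, Lhx3 and those with no value) and genes that overlap the 10 were named after their values were seen. Some marker genes are not reported here.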

Additional observations from a re-analysis of the deposited data

How the results depend on the processing

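The count of genes called in KO against WT over all genes was 0 higher and 1 lower. DESeq2 gave 2 higher and 2 lower, and the deposited pair as a block gave 2 lower. Leaving out each library gave 0 to 67 higher and 0 to 37 lower, the largest counts without WT8 and no call without WT6. The median log2 fold change of the 10 genes was -0.07 over the 7 that passed the filter, -1.11 without the filter and -1.14 with DESeq2, both over all 10, since Six6, Nkx2-2 and Sox14 then enter. Leaving out each library gave values between -2.01 (without WT6) and 1.14 (without WT8). The first is over all 10 genes, to be set beside -1.11, and the second over 7, to be set beside -0.07. Without WT8, 6 of 7 genes lay above 0, where 6 of 7 lay below with all libraries, and with limma-voom 4 of 7 lay above. The median of the wider hypothalamic factors lay between -0.43 and 0.14. Counts of genes highest in WT8 or lowest in WT6 without each other library, added after the data were seen, cannot fall below 9 by construction and show nothing on stability. Prior counts of 0.5 and 5 moved the WT8 median to 1.91 and 1.59. The block is the pairing of the deposited tables, as the labels give KO and WT different replicate numbers. In a fit without a library, the lone library of that genotype is assumed to vary like the other genotype. The 6 genes with fewer than 150 reads over all libraries are limited by depth.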
